A study of Mus musculus with 4 samples.

Results

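CD4 T cells of the mouse renal capsule, the fibrous sheath that wraps the kidney, were picked out by their transcripts. Barcodes needed 500 or more transcript molecules (UMIs) from no fewer than 300 genes, and no more than 20% of the UMIs could be mitochondrial. A barcode that passed was a CD4 T cell when Cd3d, Cd3e and Cd3g, which encode the CD3 chains, summed to at least 2 UMIs, Cd4 had at least 1, Cd8a and Cd8b1 had 0, and the 3 C1q genes of macrophages summed to fewer than 6. The rule gave 621 cells of 37361 kept barcodes (1.66%), with 60 and 37 in the young replicates and 213 and 311 in the aged replicates. Pairs of values below follow this order, replicate 1 then replicate 2, young before aged.

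The study digested renal capsules of young and aged mice that had received no treatment and sequenced the whole, unsorted cell suspension on a droplet platform that reads the 3' ends of transcripts. Each age had 2 libraries. The labels give no age in weeks, no strain and no number of animals per library. No label says that the 2 libraries of an age came from separate animals, so p-values measure only the spread between libraries, which may be technical.

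CD4 T cells recognise peptides on MHC class II molecules and direct other immune cells through cytokines and CD40 ligand. Their subsets include helper cells, follicular helper cells that assist B cells, and regulatory cells that carry the transcription factor Foxp3 and restrain responses. CD4 T cells with cytotoxic granule genes, with inhibitory receptors such as PD-1, or with regulatory features are known from the organs of aged mice.

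The T cell part of the label was checked with markers that the rule did not use. These markers cannot tell CD4 T cells from other T cells with an alpha beta receptor. Trbc1 or Trbc2, the T cell receptor beta constant genes, had a UMI in 95% and 91.9% of the young cells and 94.8% and 96.8% of the aged cells. Trac, the alpha constant gene, was detected far less often, at 18.3%, 13.5%, 16.9% and 12.9% by library, and the reason was not tested. Gamma delta receptor genes reached 2 UMIs in 2, 0, 2 and 4 cells. The median UMI count per cell was 2968, 3120, 3325 and 2267, and all UMIs of the gated cells summed to 208079, 145270, 950613 and 946916. Pairs of libraries shared 18 to 37 barcodes, where each kept 6763 to 11973.

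The edge of the rule that matters most is the Cd4 count. Cells just inside, with exactly 1 Cd4 UMI, numbered 39, 30, 143 and 241, and T cells just outside, with no Cd4 and no Cd8 UMI, numbered 162, 143, 568 and 1344. Trbc1 or Trbc2 was detected in 92.3% to 97.4% of the former and 92.2% to 95.1% of the latter. How many of the cells just outside are CD4 T cells without a captured Cd4 UMI was not tested. Stray Cd4 UMIs were rare in fibroblasts, with 1 or more in 0.0219% to 0.214% of these cells, whose median was 5428 to 8241 UMIs. Cd4 was less rare in macrophages. Per 1000000 UMIs, pooled by age, it had 8.45 in young and 14.7 in aged macrophages, and 0.0482 and 0.159 in fibroblasts. CD4 T cells had 388 and 378.

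CD4 T cells made up more of the kept barcodes in the aged libraries. They were 0.668% and 0.384% of kept barcodes in the young replicates (95% exact binomial intervals 0.510% to 0.859% and 0.271% to 0.529%, counting error only) and 3.15% and 2.60% in the aged replicates. The ages did not overlap, with means of 0.526% ± 0.201 (SD, n = 2) and 2.87% ± 0.390 (SD, n = 2). edgeR's quasi-likelihood test on the counts of 9 cell gates put the log2 ratio of aged to young at 2.45 (SE 0.26, adjusted p = 5.33e-08 over the gates). A share in a suspension cannot tell more CD4 T cells apart from fewer other cells, and the fibroblast gate fell by 1.19 on the log2 scale in the same test.

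Among T cells alone, the direction turned. CD4 T cells were 20.7% and 15.7% of all T cell gates in the young replicates and 12.8% and 9.56% in the aged ones (log2 ratio -0.73, edgeR adjusted p = 0.0496 over 4 gates). CD8 T cells, gated in the same way on Cd8a and Cd8b1, went from 68 and 55 cells to 864 and 1582, a log2 ratio of 4.29 over kept barcodes. CD4 T cells therefore rose against the whole suspension but made up less of the T cell gates, and this share of T cells rested on a p close to the threshold.

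**Figure D1:**
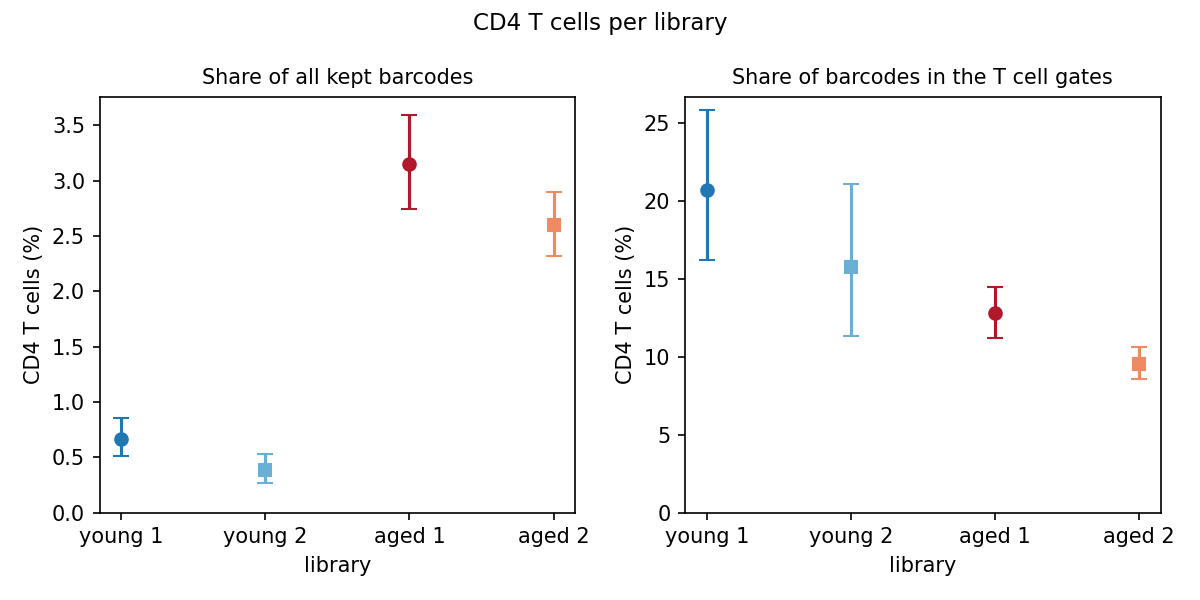
CD4 T cells as a percentage of all kept barcodes (left) and of the barcodes in the T cell gates (right), 1 point per library with its 95% exact binomial interval. Left, both aged libraries (3.15% and 2.60%) lie above both young ones (0.668% and 0.384%). Right, the aged libraries (12.8% and 9.56%) lie below the young ones (20.7% and 15.7%).

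The transcripts of the gated cells were then summed in each library and compared by age. Levels are counts per 1000000 UMIs of a sum (CPM), scaled by edgeR's TMM factors unless called unscaled. A sum cannot tell more cells with a gene apart from more of its RNA in each cell. Of 6864 genes tested, 147 passed an adjusted p of 0.05 in edgeR's quasi-likelihood test (2.14%), of which 49 were higher in the aged libraries (0.714% of the genes tested) and 98 lower (1.43%). The 2 ages did not overlap in 47.5% of the genes tested, so a lack of overlap alone says little. An unadjusted p under 0.05 was reached by 962 genes, and the median log2 change of all genes was 0.03. Of the gene lists examined, that of cytotoxic cells had the most members that rose.

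RNA of other cells moved with age in these sums. The 7 plasma cell markers summed to 81.7 and 89.5 CPM in the young cells and 17173 and 14584 CPM in the aged cells, all unscaled. Most of it was Igkc, the kappa light chain, at 14851 CPM in the pooled aged cells, and Jchain was at 0 in both young libraries. The 8 fibroblast markers went the other way, from 6363 and 8784 CPM to 2426 and 2517 CPM, unscaled. Dendritic cell markers summed to 2340 and 165 CPM in the young and 4533 and 5845 CPM in the aged cells. The part of these cells in the age differences was not tested beyond the alternatives given with the calls. Of the called genes, 16 of the 49 higher and 41 of the 98 lower ones stood at least 5 times higher in another cell gate of the same age, the lower ones in fibroblasts (25) and endothelial cells (16).

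Cytotoxic and Eomes genes rose in 7 of 12 tested members of 19 listed, none fell, and their median log2 change was 1.68. Of the 7, Eomes had no UMI in the young cells, Ccl4 had 1 and Ccl3 had 3. These passed the filter on low counts through the aged libraries alone, so the count and the median are descriptions. Gzmk encodes granzyme K, a granule protease (chromosome 13, 113171608 to 113225908, GRCm38). Its level was 19.95 and 27.2 CPM in the young cells and 284 and 270 CPM in the aged ones, a log2 change of 3.57 (SE 0.33, edgeR adjusted p = 0.00014). The groups lay far apart, and 38.5% and 34.1% of the aged cells had a Gzmk UMI against 5% and 8.11% of the young cells. After thinning to 1000 UMIs these shares were 22.01% and 23.7% against 5.17% and 8.33%. In macrophages, at medians of 7064 to 10021 UMIs, a Gzmk UMI was found in 0% to 1.77% of cells.

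Ccl5, a chemokine stored by memory and cytotoxic T cells, went from 1043 and 1536 CPM to 6034 and 4404 CPM (log2 change 2.02, SE 0.21, edgeR adjusted p = 0.000409). Its detection moved less than its level, from 51.7% and 56.8% of cells to 64.3% and 61.4%. Nkg7, a cytotoxic granule protein, showed the same pattern, with levels of 339 and 401 CPM and then 981 and 889 CPM (log2 change 1.34, SE 0.19, adjusted p = 0.00357). Nkg7 was detected in 46.7% and 62.2% of the young cells and 57.8% and 53.4% of the aged cells, which overlap. After thinning to 1000 UMIs the Nkg7 shares no longer overlapped, at 31.0% and 33.3% against 47.4% and 41.6%, with 1 to 4 shallower cells left out per library. Both genes were also found more in aged cells that should lack them, as Ccl5 was seen in 1.70% and 1.60% of young fibroblasts and 12.2% and 10.95% of aged ones. Pooled over the aged fibroblasts Ccl5 stood at 25.8 CPM and Nkg7 at 2.63 CPM, against 4819 and 863 CPM in the aged CD4 T cells, all unscaled.

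Ccl4, a chemokine of activated T cells and macrophages (chromosome 11, 83662584 to 83664683, GRCm38), had 0 and 6.80 CPM in the young cells, from 1 UMI in all, and 460 and 345 CPM in the aged cells. The pooled ratio was 131-fold with a 95% counting interval of 23.5 to 5193. Ccl3, its neighbour and relative, had 0 and 20.4 CPM and then 72.5 and 87.6 CPM, a pooled ratio of 8.69-fold (interval 2.91 to 42.7). Unscaled and pooled, Ccl4 stood at 372 CPM in aged CD4 T cells, 150 CPM in aged macrophages, 740 CPM in aged CD8 T cells and 2035 CPM in aged natural killer cells. Cst7, the granule inhibitor cystatin F, rose from 19.95 and 20.4 CPM to 91.8 and 79.6 CPM (log2 change 2.08).

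Eomes, the transcription factor that drives granzyme and perforin programmes, was not detected in the young cells. No UMI in 60 and 37 cells allows a share of up to 5% and 8.11% with a UMI, while 21.1% and 12.9% of the aged cells had one (9.57% and 6.82% after thinning). Its aged levels were 86.1 and 66.9 CPM, at least 8.32-fold higher when 3 counts stand for the pooled young group. Eomes passed the filter on low counts through the aged libraries alone, so it could only be called higher, and its levels are a description. In the aged replicates 44 of 45 and 39 of 40 cells with Eomes also had Ccl5, and 45 of 45 and 39 of 40 had Nkg7. Away from Eomes, Ccl5 was seen in 55.4% and 56.1% of cells and Nkg7 in 46.4% and 46.9%.

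Natural killer cells share several of these genes. Their 7 markers, Eomes among them, summed to 9.61 and 6.88 CPM in the young cells and 90.5 and 76.0 CPM in the aged ones, with Ncr1 at 0 in 3 of 4 libraries. Cd8a and Cd8b1 were at 0 by the rule. The part of NK cells in the result was not tested beyond these values.

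**Figure D2:**
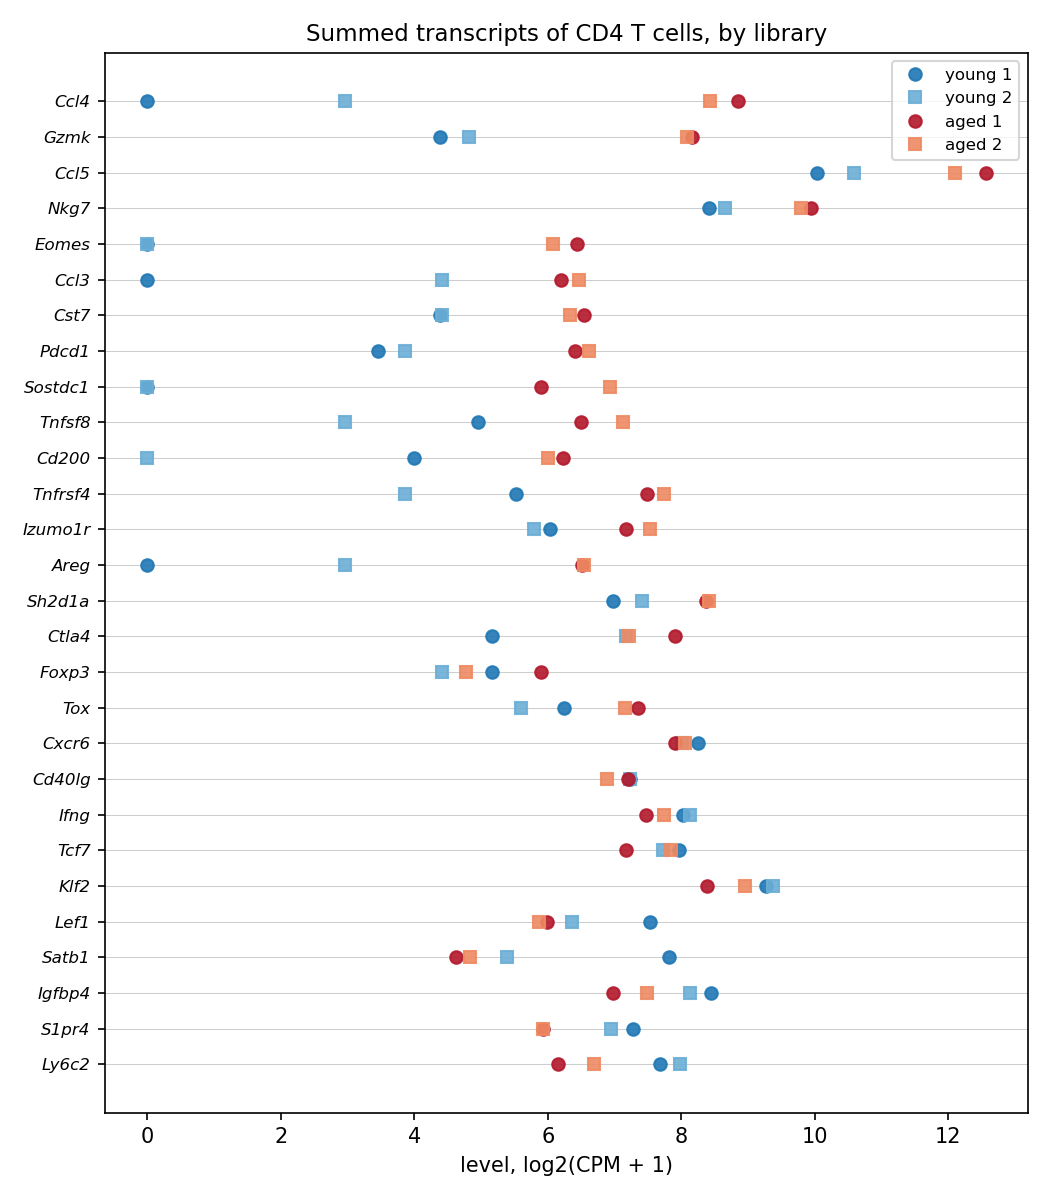
Level of named genes in the summed CD4 T cells of each library, as log2(CPM + 1), with 1 point per library. Ccl4, Gzmk, Ccl5, Nkg7 and Eomes lie higher in both aged libraries, while Foxp3, Cxcr6 and Tcf7 overlap between the ages.

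Inhibitory receptor and exhaustion genes rose in 5 of 11 tested members of 17 listed, with a median log2 change of 2.49, and none fell. Of the 5, Eomes and Sostdc1 had no UMI in the young cells and could only be called higher. Pdcd1, Tnfsf8 and Cd200 had 2 and 2, 6 and 1, and 3 and 0 UMIs there. They also passed the filter on low counts through the aged libraries alone. The count, the median and these calls are descriptions here too. Pdcd1 (chromosome 1, 94038305 to 94052553, GRCm38) encodes the inhibitory receptor PD-1 and went from 9.98 and 13.6 CPM to 83.9 and 96.9 CPM (log2 change 2.95, SE 0.49, edgeR adjusted p = 0.00864). A Pdcd1 UMI was found in 3.33% and 5.41% of the young cells and in 19.2% and 19.3% of the aged cells. Thinned, the shares were 1.72% and 0% against 5.74% and 9.09%. In the deeper macrophages the unthinned share was 0.0359% to 0.959%. Sostdc1, which encodes a secreted BMP and Wnt antagonist, was at 0 in the young cells and at 58.9 and 121 CPM in the aged ones, at least 9.75-fold higher with 3 counts for the pooled young group. In aged B cells Sostdc1 stood at 0.621 CPM unscaled, the highest of the other aged gates compared.

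Tnfsf8, the CD30 ligand, went from 29.9 and 6.80 CPM to 89.5 and 138 CPM, and Cd200, an inhibitory ligand, from 15.0 and 0 CPM to 73.7 and 63.4 CPM. Cd200 was 11.9 times higher in aged endothelial than in aged CD4 T cells. It no longer passed without aged replicate 1 (adjusted p = 0.175) or without doublets, where its log2 change went from 2.96 to 1.77 (adjusted p = 0.499). Tox, a transcription factor of exhausted cells, missed the threshold with 74.8 and 47.6 CPM against 162 and 142 CPM (adjusted p = 0.0577), but passed without young replicate 1 (0.0165) or aged replicate 2 (0.0332). Lag3, another inhibitory receptor, had 1 UMI in the young cells and levels of 34.0 and 19.6 CPM in the aged ones (adjusted p = 0.161).

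Regulatory T cell genes rose in 3 of 16 tested members of 24 listed, with a median log2 change of 0.90, and none fell. Areg had 0 and 1 UMIs in the young cells and Tnfrsf4 had 9 and 2. Both passed the filter on low counts through the aged libraries alone, so the count and the median are descriptions again. Tnfrsf4, the costimulatory receptor OX40, went from 44.9 and 13.6 CPM to 179 and 212 CPM (log2 change 2.63, SE 0.38, edgeR adjusted p = 0.0041). Izumo1r, which encodes folate receptor 4, went from 64.9 and 54.4 CPM to 143 and 183 CPM (log2 change 1.43, adjusted p = 0.036, and 0.107 without aged replicate 2). Areg, an epidermal growth factor family ligand tied to tissue repair, had 1 UMI in the young cells and 90.7 and 92.2 CPM in the aged ones, a pooled ratio of 29.8-fold with a counting interval of 5.27 to 1184.

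Foxp3 itself (chromosome X, 7573644 to 7595245, GRCm38) did not pass. Its level was 34.9 and 20.4 CPM in the young cells and 58.9 and 26.5 CPM in the aged ones, which overlap (log2 change 0.58, SE 0.59, adjusted p = 0.719). It was seen in 5% and 2.70% of the young cells and 9.39% and 5.47% of the aged cells, and thinned in 0% and 2.78% against 5.26% and 2.27%. In macrophages the share was at most 0.332%. Ctla4, an inhibitory receptor of regulatory and activated cells, had 34.9 and 142.8 CPM against 239 and 148 CPM (adjusted p = 0.226). The 2 young values stand wide apart there, and Ctla4 passed without young replicate 2 (log2 change 2.47) or without aged replicate 2 (1.52). Il2ra, the high affinity interleukin 2 receptor chain, was low in every library, at 9.98 to 27.2 CPM.

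Follicular helper genes rose in 4 of 10 tested members of 15 listed (median log2 change 0.82). Of those 4, Tnfsf8, Izumo1r and Cd200 also stand in the lists above. The limit of the filter on low counts holds for Tnfsf8 and Cd200 here too. The fourth was Sh2d1a, the adaptor SAP needed for help to B cells, with 125 and 170 CPM and then 329 and 340 CPM (log2 change 1.20, SE 0.23, edgeR adjusted p = 0.0205). Il21, the helper cytokine, had no UMI in the young cells and was seen in 2.35% and 4.18% of the aged cells. Cd40lg, through which helper cells license B cells, did not pass, with 150 and 150 CPM against 146 and 118 CPM.

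Naive and recirculating T cell genes fell in 2 of 16 tested members of 19 listed, with a median log2 change of -0.68, and none rose. Satb1, a chromatin organiser of naive cells, had 224.5 and 40.8 CPM in the young cells and 23.8 and 27.7 CPM in the aged ones (adjusted p = 0.0365). That call rested on young replicate 1, since without it the change was -0.68 with an adjusted p of 0.738. Igfbp4, an insulin-like growth factor binding protein found in naive T cells, went from 349 and 279 CPM to 125 and 179 CPM (log2 change -1.06, adjusted p = 0.043). It stood higher in fibroblasts, at 1419 and 1936 CPM unscaled in young and aged, and the part of fibroblast RNA in its fall was not tested. Igfbp4 missed the threshold without young replicate 1 (0.0609) or aged replicate 1 (0.179).

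Klf2, the factor that keeps T cells circulating, missed the threshold with 614 and 659 CPM against 334 and 495 CPM (adjusted p = 0.211, and 0.0459 without young replicate 1). Its detection was 56.7% and 59.5% of the young cells and 36.6% and 35.7% of the aged cells, without overlap (thinned 39.7% and 47.2% against 18.2% and 22.1%). Klf2 is also abundant in fibroblasts, where at least 60.6% of cells in every library had a UMI. Lef1, Tcf7, Ccr7 and S1pr1, genes of naive and recirculating cells, had log2 changes of -1.20, -0.32, -0.84 and -0.69 with all libraries and did not pass. Without young replicate 2 the Lef1 change was -1.61 and passed.

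Few helper subset genes passed. Type 1 genes fell in 1 of 12 tested, Ly6c2, a surface antigen of memory T cells and monocytes, from 204.5 and 251.5 CPM to 70.3 and 103 CPM (adjusted p = 0.0205). Neither type 2 nor type 17 genes had a call among 5 tested in each. Ifng, the type 1 cytokine, had 259 and 279 CPM against 176 and 213 CPM (adjusted p = 0.355). Il17a was seen in no young cell and in 0.469% and 0.643% of the aged cells.

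Tissue residency genes had no call among 17 tested (median log2 change 0.39). Cxcr6 and Cxcr3, receptors that place T cells in tissues, were close in all libraries, at 304 and 258 against 239 and 265 CPM for Cxcr6 and 195 and 258 against 277 and 281 CPM for Cxcr3. T cell receptor and signalling genes had no call among 23 tested (median 0.09). Ribosomal protein genes had none among 48 (median 0.28), and neither oxidative phosphorylation genes (34) nor glycolysis genes (13) had one.

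Chemokine receptor genes fell in 2 of 13 tested. S1pr4, a sphingosine phosphate receptor of lymphocytes, went from 155 and 122 CPM to 60.1 and 60.0 CPM, and Ackr3, a scavenging receptor, from 29.9 and 204 CPM to 5.67 and 12.7 CPM. Without young replicate 2 the Ackr3 change was -1.68 with an adjusted p of 0.441. S1pr4 missed the threshold without young replicate 1 (0.173), aged replicate 1 (0.117) or aged replicate 2 (0.113). Ackr3 stood higher in fibroblasts, at 498 and 406 CPM unscaled in young and aged. With 5 and 11 UMIs in the aged cells, Ackr3 passed the filter on low counts through the young libraries alone. Its call and the count of 2 chemokine receptor genes are descriptions. Cytokine genes rose in 2 of 12, Areg and Tnfsf8, which both passed the filter on low counts through the aged libraries alone. Interferon response genes rose in 1 of 24, Irf8, a factor that was 6.52 times higher in aged dendritic cells than in aged CD4 T cells. With 3 and 3 UMIs in the young cells, Irf8 passed the filter through the aged libraries, so its call is a description.

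Members of 4 further lists passed. Immediate early and dissociation stress genes rose in 3 of 25, namely Ier3, Dusp2 and Dusp1, a stress gene and a pair of phosphatases that switch off MAP kinases. Ier3 had 3 and 1 UMIs in the young cells and passed the filter on low counts through the aged libraries alone. Its call and the count of 3 are descriptions. Psmb8, an immunoproteasome subunit, rose among 19 MHC class I genes, from 718 and 741 to 1152 and 1356 CPM. S100a4 rose among 22 cytoskeleton and S100 genes, from 594 and 598 to 1273 and 1046 CPM. H2afz, a histone variant, rose among 18 cell cycle genes, whereas Mki67, a proliferation marker, overlapped between the ages with 54.9 and 217.5 against 96.3 and 16.1 CPM. Of these, Psmb8 and S100a4 missed the threshold without aged replicate 1 (0.0789 and 0.17), and Psmb8 also without aged replicate 2 (0.454). Dusp1 and H2afz missed it without young replicate 1 (0.104 and 0.0522), aged replicate 1 (0.0899 and 0.174) or aged replicate 2 (0.0723 and 0.179). Mki67 passed as lower without young replicate 1 (-1.96) or aged replicate 1 (-2.98).

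Outside the lists, Ctla2a, a protease inhibitor of activated T cells, went from 135 and 190 CPM to 674 and 454 CPM (log2 change 1.82, SE 0.27, edgeR adjusted p = 0.00525). Cst3 and Slpi were among the most significant genes that rose, but Cst3 was 8.21 times higher in aged dendritic cells and Slpi 9.28 times higher in aged endothelial cells. Slpi had 1 and 0 UMIs in the young cells. It passed the filter on low counts through the aged libraries alone, so its call and rank are descriptions. Markers of other cells aside, which include Col1a1, Col1a2 and Sparc, the 10 separated genes that fell with the smallest adjusted p were Fn1, Fabp4, Dpt, Postn, Dkk2, Fstl1, Meg3, Mgll, Cavin1 and Fbn1. These are genes of matrix, fibroblasts and endothelium. In the aged cells Postn had 0 and 4 UMIs, Dkk2 3 and 2, Meg3 1 and 8, and Mgll 15 and 10. Those 4 genes passed the filter through the young libraries alone, so their calls and ranks are descriptions. Fn1, the matrix protein fibronectin, went from 713 and 598 CPM to 89.5 and 103 CPM.

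The length of the list of calls depended on which cells were kept, and 2 limits stand beside the whole comparison. Without the 3, 4, 11 and 26 cells marked as doublets, 8 genes passed, 5 of them higher, and the 5 were Ccl4, Gzmk, Ccl5, Tnfrsf4 and Cst3. Cells with 3 or more UMIs in sum of B cell (Cd79a, Cd79b, Ms4a1), plasma cell (Jchain, Mzb1), fibroblast (Col1a1, Col1a2, Col3a1) or C1q genes numbered 6, 4, 10 and 26. Without them 41 genes passed, with 5 of the cytotoxic list, 3 of the exhaustion list and 2 of the regulatory list still higher. There no gene of the follicular helper list passed (Sh2d1a 0.1, Tnfsf8 0.0596, Izumo1r 0.0693 and Cd200 0.218 as adjusted p), and none of the naive list did (Satb1 0.0551 and Igfbp4 0.278).

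**Figure D3:**
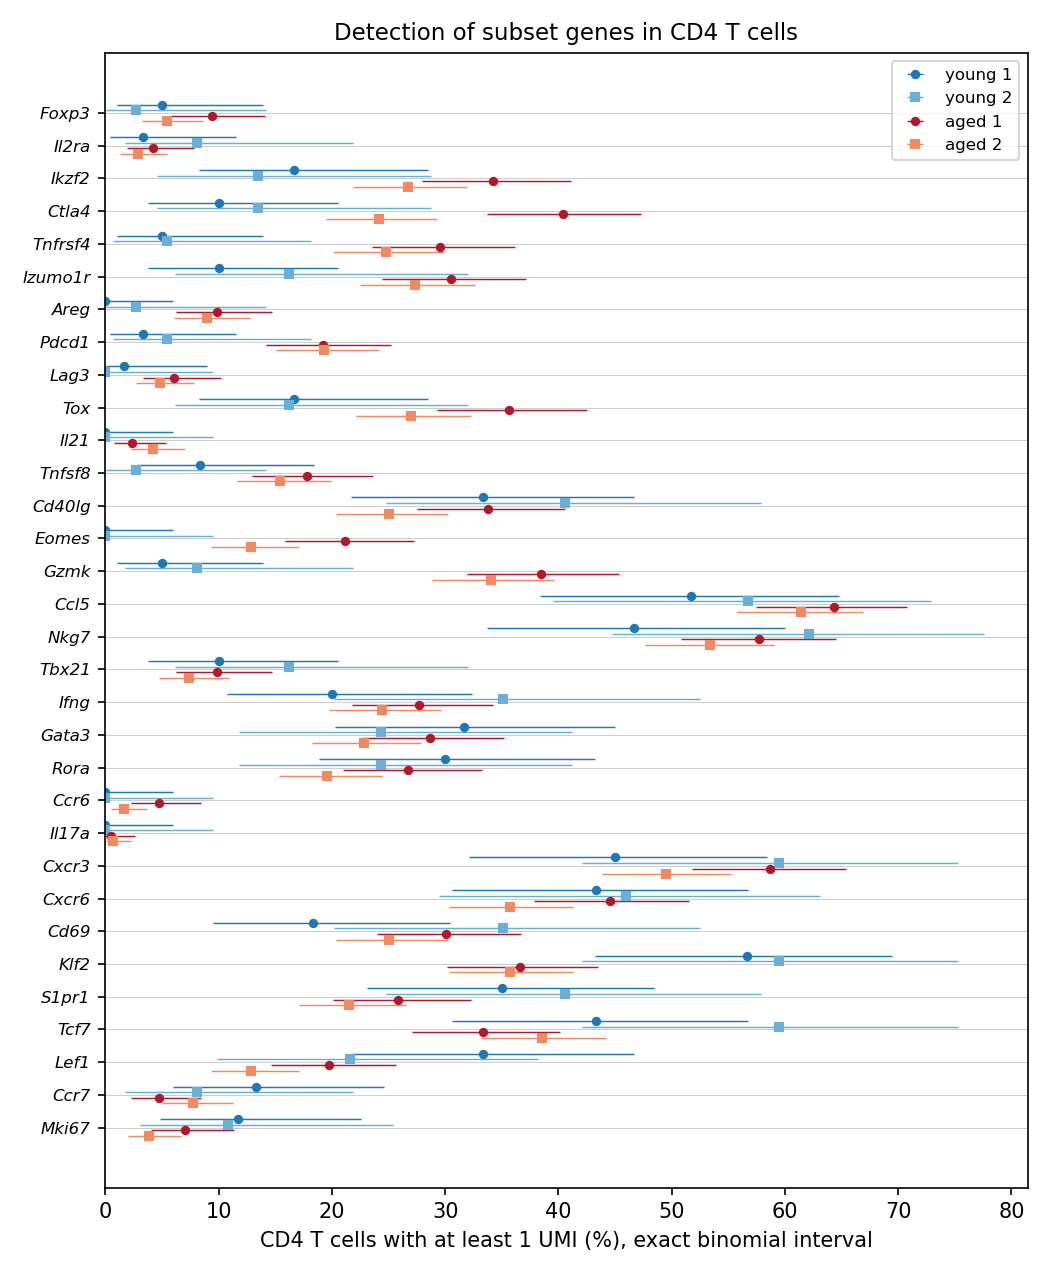
Percentage of CD4 T cells with at least 1 UMI of each subset gene, 1 point per library with its 95% exact binomial interval. Gzmk, Pdcd1, Tnfrsf4 and Eomes are detected more often in both aged libraries, for example Gzmk in 38.5% and 34.1% against 5% and 8.11%, whereas Cxcr6 and Nkg7 overlap between the ages.

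Against CD8 T cells of the same libraries, CD4 T cells carried more helper and regulatory genes and fewer genes of cytotoxic receptors. This comparison held the library as a block, and its CPM are scaled over both cell classes. Of 6482 genes tested, 319 passed in edgeR's quasi-likelihood test (4.92%), 120 higher in CD4 T cells (1.85%) and 199 lower (3.07%), with a median log2 difference of 0.02 over all genes. Median depth differed, at 2267 to 3325 UMIs in CD4 and 3085 to 4208 in CD8 T cells. Cd4, Tnfrsf4, Izumo1r and Ctla4 mark the class and are given without a test, as are Cd8a and Cd8b1. Izumo1r stood at 52.9 to 172 CPM in CD4 against 9.98 to 31.4 CPM in CD8 T cells, and a Tnfrsf4 UMI was found in 5% to 29.6% of CD4 against 1.77% to 2.94% of CD8 T cells.

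Cd40lg was the clearest helper gene, with 144, 145.5, 137 and 110 CPM in CD4 T cells and 26.6, 8.98, 15.1 and 10.8 CPM in CD8 T cells (log2 difference 3.20, SE 0.19, edgeR adjusted p = 9.76e-06). The difference between the classes had the same sign in all 4 libraries, as in 24.6% of the genes tested. With 8, 2, 59 and 60 UMIs in the CD8 T cells, Cd40lg passed the filter on low counts through the CD4 T cells. Its call is therefore a description. Maf, a transcription factor of helper cytokines, was higher by 1.77 and Icos, a costimulatory receptor, by 1.46. They belong to the follicular helper list, where 5 of 7 tested members were higher and none lower. Cd40lg is 1 of the 5, so this count is a description too.

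Regulatory T cell genes were higher in 4 of 10 tested and lower in none. Foxp3 had 33.5, 19.8, 55.4 and 24.8 CPM in CD4 T cells and 6.66, 4.49, 1.28 and 0.903 CPM in CD8 T cells (log2 difference 4.65, SE 0.45, edgeR adjusted p = 0.000168). With 2, 1, 5 and 5 UMIs in the CD8 T cells, Foxp3 passed the filter on low counts through the CD4 T cells alone. It could only be called higher, so its call and the count of 4 are descriptions. Ikzf2, the factor Helios, was higher by 2.58, Capg, an actin capping protein, by 1.32, and Tnfrsf18, the receptor GITR, by 1.05. Gata3 and Rora, factors of type 2 and type 17 cells, were higher by 0.93 and 0.99. Cd5, a negative regulator of receptor signalling, was higher by 1.32 and Tbc1d4, a regulator of glucose transport, by 2.03.

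Cytotoxic and Eomes genes were lower in CD4 T cells in 14 of 18 tested, with a median log2 difference of -1.58, and none was higher. Klrd1, the receptor chain CD94, had 14.4, 13.2, 17.03 and 34.6 CPM in CD4 T cells and 150, 198, 288 and 304 CPM in CD8 T cells (log2 difference -3.54, SE 0.19, edgeR adjusted p = 5.06e-06). Klrk1 and Klrc1, the receptors NKG2D and NKG2A, had log2 differences of -2.98 and -4.09. Gzmm, granzyme M, had 1 UMI in all CD4 T cells and 69.9 to 144 CPM in CD8 T cells. Klrd1, Klrk1, Klrc1 and Gzmm had too few UMIs in the CD4 T cells to pass the filter on low counts there. They passed it through the CD8 T cells, so these calls, the count of 14 and the median are descriptions.

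Genes that rose with age in CD4 T cells did not all sit below CD8 T cells. Ccl5 did, with 1000, 1494, 5669 and 4123 CPM against 4949, 5743, 12319 and 12275 CPM (log2 difference -1.71), and so did Nkg7 (-1.35). Gzmk did not pass, since it was lower in CD4 T cells of both young libraries (19.1 and 26.5 against 63.2 and 139 CPM) and a little higher in both aged ones (267 and 253 against 237 and 217 CPM). Pdcd1 stood at 9.57 and 13.2 against 9.98 and 13.5 CPM in the young libraries. Those values rest on 2 and 2 against 3 and 3 UMIs, too few to compare the classes. It was higher in CD4 T cells of the aged libraries, at 78.8 and 90.7 against 53.4 and 46.8 CPM (edgeR adjusted p = 0.0563 over all 4 libraries).

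Naive and recirculating genes were lower in CD4 T cells in 6 of 16 tested. Ccr7, a receptor for entry into lymph nodes, had 81.3, 19.8, 21.3 and 37.8 CPM against 136.5, 189, 51.3 and 56.9 CPM in CD8 T cells (log2 difference -1.10, edgeR adjusted p = 0.04). Klf2 had 588, 641, 314 and 463 CPM against 839, 736, 639 and 598 CPM (-0.55, adjusted p = 0.0423). Cytosolic ribosomal protein genes were lower in 47 of 48 (median -0.53). Rps2 for one had 2052, 2076, 2771 and 2646 CPM in CD4 against 3351, 4027, 4262 and 3967 CPM in CD8 T cells. These counts dropped without aged replicate 1 or aged replicate 2, to 24 and 28 for the ribosomal list and to 10 and 8 for the cytotoxic list, and all genes called fell to 85 and 90.

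**Figure D4:**
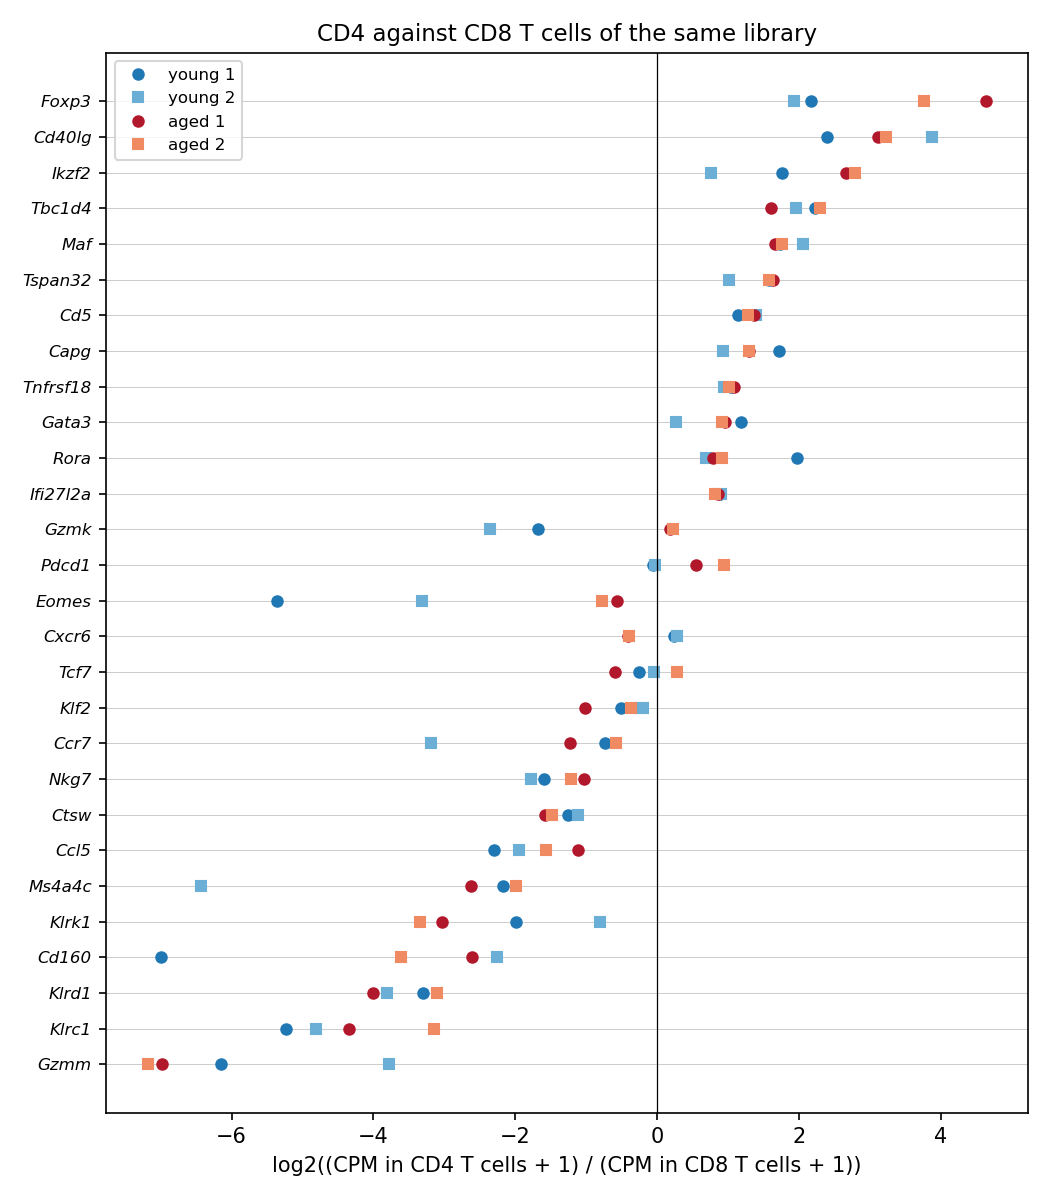
Difference between CD4 and CD8 T cells of the same library for named genes, as log2 of the ratio of CPM + 1, with 1 point per library. Foxp3, Cd40lg and Maf lie right of 0 in all 4 libraries and Klrd1, Klrc1 and Gzmm left of it, while Gzmk lies left of 0 in the young libraries and just right of it in the aged ones.

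Whether age changed a gene differently in CD4 and CD8 T cells was tested as an interaction over 7733 genes. The 1 gene that passed was Ccl4 (0.0129% of genes tested), and 465 had an unadjusted p under 0.05. On this fit's scale Ccl4 had 0 and 6.35 CPM in young and 427 and 320 CPM in aged CD4 T cells, against 726 and 289 CPM in young and 847 and 826 CPM in aged CD8 T cells. The log2 age difference was 6.43 larger in CD4 T cells (SE 0.68, edgeR adjusted p = 0.0358). The young CD4 T cells held 1 Ccl4 UMI, and the difference no longer passed without young replicate 1 (4.35, adjusted p = 0.0688), nor with aged replicate 1 left out (6.21, adjusted p = 0.165). For Gzmk the age difference was 2.30 larger in CD4 T cells and did not pass (SE 0.39, adjusted p = 0.242), and for Pdcd1 it was 0.82 larger (SE 0.80, adjusted p = 0.911).

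Within the CD4 T cells, those with a Foxp3 UMI were compared with those without, in the aged libraries alone. There 20 of 213 and 17 of 311 cells were positive, whereas the young libraries had 3 and 1, below the 10 cells set for a sum. Median depth was alike, at 3086 and 2238 UMIs in positive and 3348 and 2268 in negative cells. Of 5877 genes tested, 18 passed in edgeR with the library as a block (0.306%), 7 higher (0.119%) and 11 lower (0.187%). With 2 libraries the difference had the same sign in both for 55% of the genes tested, so a shared sign alone says little. The fit had 1 residual degree of freedom, and Foxp3, which split the cells, was not tested.

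The positive cells were higher in regulatory T cell genes, 3 of 18 tested, and in nothing of the cytotoxic list. Ctla4 stood at 586 and 403 CPM in positive and 199 and 132.5 CPM in negative cells (log2 difference 1.58, SE 0.24, adjusted p = 0.0496). Tnfrsf4 stood at 410 and 750.3 against 153 and 179 CPM (1.74, SE 0.26, adjusted p = 0.0493). Klrg1, a receptor of differentiated cells, stood at 140 and 220 against 14.8 and 20 CPM. With 11 and 16 UMIs in the negative cells, Klrg1 passed the filter on low counts through the positive cells alone, so the count of 3 is a description. Ccnd1, Iigp1, H2afz and S100a10 were higher too, a cyclin, an interferon-induced GTPase, a histone variant and a calcium-binding partner of annexin A2. With 17 and 21 UMIs in the negative cells, Iigp1 would not have passed the filter without the positive cells. Its call is a description as well.

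Areg followed the same direction without passing, with 261 and 348 CPM in positive and 69.9 and 76.3 CPM in negative cells (adjusted p = 0.058). So did Ikzf2 (493 and 366 against 151 and 159 CPM) and Il2ra (74.5 and 54.9 against 14.8 and 8.75 CPM). Tnfrsf4 was detected in 65% and 58.8% of positive and 25.9% and 22.8% of negative cells. Of the 63 and 77 aged cells with Tnfrsf4, 13 and 10 had a Foxp3 UMI.

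Cytotoxic genes were lower in the positive cells in 3 of 12 tested, Gzmk, Ccl5 and Nkg7. Gzmk had no UMI in the positive cells and 337 and 292.5 CPM in the negative ones, at least 15.2-fold lower with 3 counts for the pooled positive cells (adjusted p = 0.0308). Like Xcl1, which had none there either, Gzmk passed the filter on low counts through the negative cells alone. Both could only be called lower, so the count of 3 is a description. Ccl5 stood at 717 and 1373 against 7051 and 4681 CPM (log2 difference -2.55, SE 0.32, adjusted p = 0.0343). Xcl1, a chemokine, Ifng, Hcst, an adaptor of NKG2D, and Ms4a4b, a T cell membrane protein, were lower as well. Ifng had 0 and 1 UMIs in the positive cells and passed the filter through the negative cells alone, so its call is a description. Eomes was found in 1 of 20 and 0 of 17 positive cells. With DESeq2 the adjusted p of Gzmk and Xcl1, the pair with no UMI in positive cells, was 1, and that of Ctla4 was 0.0756.

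The other genes lower in the positive cells were Igkc, Jchain, Ighm and Gpx3. Jchain had 1 UMI in the positive cells and passed the filter on low counts through the negative cells alone. Igkc stood at 270 and 384 against 20342 and 16240 CPM, so plasma cell RNA lay almost wholly in Foxp3 negative cells. Its part in the other differences was not tested, but without the cells that held 3 or more UMIs of B cell, plasma cell, fibroblast or C1q genes, Ctla4, Tnfrsf4, Klrg1 and H2afz still passed as higher and Gzmk, Ccl5, Nkg7, Xcl1, Hcst and Ms4a4b as lower. There the Ighm log2 difference turned to 1.86.

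Cells with a Pdcd1 UMI, 41 and 60 in the aged libraries, were compared in the same way. Of 5874 genes tested, 10 passed in edgeR (0.17%), 2 higher (0.034%) and 8 lower (0.136%). Sostdc1 stood at 162 and 340 CPM in positive and 20.1 and 56.9 CPM in negative cells (log2 difference 2.75, SE 0.31, adjusted p = 0.00171). With 13 and 39 UMIs in the negative cells, Sostdc1 would not have passed the filter on low counts without the positive cells. Its call is therefore a description. The other gene that was higher was Eea1, an early endosome tether, at 279 and 289 against 80.4 and 89.0 CPM. The difference had the same sign in both libraries for 51.7% of the genes tested. Positive cells were somewhat deeper, at medians of 3958 and 2444 against 3266 and 2249 UMIs.

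Il7r, the interleukin 7 receptor that sustains resting T cells, was lower at 162 and 237 against 597 and 610 CPM (log2 difference -1.62, SE 0.25, edgeR adjusted p = 0.0246). Klf2 was lower at 117 and 237 against 413 and 559 CPM (-1.51, adjusted p = 0.0464). The remaining 6 lower genes were Ly6d, Apod, Igkc, Jchain, Ighm and Plvap, which mark B cells, stroma, plasma cells and endothelium. Of these, Ly6d, Apod and Plvap passed the filter on low counts through the negative cells alone. Among genes that did not pass, Tox stood at 283 and 258 against 116 and 107 CPM, and Lag3 at 79.1 and 46.4 against 17.01 and 11.7 CPM. With DESeq2 the adjusted p of Il7r was 0.113 and that of Eea1 and Klf2 was 0.461. Of the T cell genes only Sostdc1, whose call is a description, passed with both tools.

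No gene of the cytotoxic list passed between cells with and without Pdcd1, of 13 tested. Gzmk stood at 387 and 299 CPM in positive and 244 and 257 CPM in negative cells (adjusted p = 0.864). Eomes was seen in 31.7% and 16.7% of positive and 18.6% and 12.0% of negative cells. Il21 was seen in 9.76% and 10% of positive and 0.581% and 2.79% of negative cells, from 5 and 13 cells with Il21 in all. Pdcd1 itself was seen in 20% and 17.6% of Foxp3 positive and 19.2% and 19.4% of Foxp3 negative cells.

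**Figure D5:**
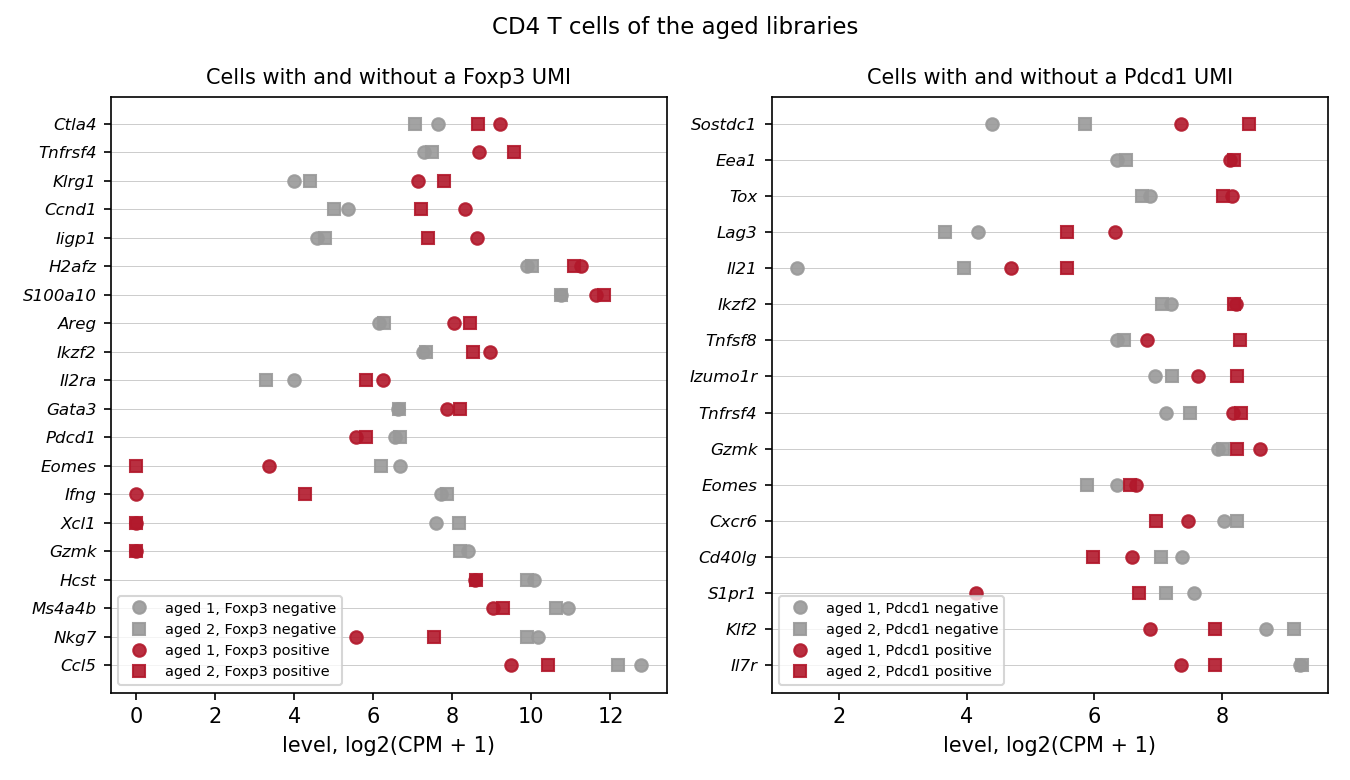
Levels in the aged CD4 T cells with (red) and without (grey) a Foxp3 UMI, left, or a Pdcd1 UMI, right, as log2(CPM + 1), with 1 point per aged library and cell group. Left, Ctla4 and Tnfrsf4 lie higher and Gzmk (0 UMIs), Nkg7 and Ccl5 lower in the positive cells of both libraries. Right, Sostdc1 and Eea1 lie higher and Il7r and Klf2 lower in the positive cells.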

How the data were processed

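The deposited matrices hold whole-number UMI counts per gene and barcode, and were made by the authors with Cell Ranger 6.0.2 on GRCm38, per the submitters' processing notes; the file headers name Cell Ranger 6.0.1. Gene positions come from GENCODE M21 (GRCm38), where 52403 of 52636 gene IDs matched. Barcodes were filtered and gated by the rule in the opening paragraph, counts were summed per library and gate, and sums were tested with edgeR 4.0.16 (quasi-likelihood, TMM factors, genes kept by its filter at 10 counts, Benjamini-Hochberg adjustment over all genes tested). DESeq2 1.42.0 was an alternative. Doublets were marked with Scrublet in scanpy 1.11.5, at 0.8% per 1000 barcodes. Kept barcodes numbered 6763 to 11973 per library. Sums with fewer than 10 cells were not tested, so the Foxp3 and Pdcd1 comparisons used the aged libraries only.

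The members and gene lists were chosen with earlier results of these data known. Genes named are, per comparison, up to 10 higher and 10 lower genes with the smallest adjusted p and no overlap, leaving out unnamed transcripts and markers of other cells, up to 4 passing members of each list filled to 3 by level, and 34 subset genes, of which 1 is not reported here. In the comparisons with the library as a block, no overlap means a difference of the same sign in every library. Lists were not tested as sets. Tests were checked on simulated data.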

Additional observations from a re-analysis of the deposited data

Results flagged for a closer look

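The age difference of Ccl4 was larger in CD4 than in CD8 T cells by 6.43 on the log2 scale (edgeR interaction, adjusted p = 0.0358), the only gene of 7733 for which that difference passed. Ccl4 had 0 and 1 UMI in the young CD4 T cells, 406 and 299 in the aged CD4 T cells, 222 and 66 in the young CD8 T cells and 3331 and 4592 in the aged CD8 T cells.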

How the results depend on the processing

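The share of CD4 T cells kept its direction and passed in edgeR under all alternatives (log2 ratio 1.70 to 2.63, without each replicate 2.09 to 2.89) other than T cell gates as the denominator, where it was -0.73. With the replicate block it was 2.48. Replicate numbers share only a number: deviations of same-numbered libraries correlated at -0.04 across genes, and the block gave 57 higher and 128 lower genes by age against 49 and 98.

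The genes of CD4 T cells by age that passed numbered 147, but 96 with DESeq2, 14 with no filter on low counts, 8 without doublets, 7 with at least 3 Cd3 UMIs and no C1q, 41 without cells holding transcripts of other cell types, 77 with cells thinned to 1000 UMIs, and 143 to 389 without each replicate. Gzmk and Ccl4 passed in every alternative, while Ccl5 missed in 1, with at least 3 Cd3 UMIs (adjusted p = 0.0543). Pdcd1 missed with DESeq2 (0.0775), no filter (0.103), no doublets (0.0905), at least 3 Cd3 UMIs (0.199) and thinning (0.119). Fstl1 turned to 0.32 with at least 3 Cd3 UMIs.

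The genes of CD4 against CD8 T cells that passed numbered 319, 607 with no filter, 527 without cells holding transcripts of other cell types (for this and the comparisons below chosen after seeing the data), and 85 to 419 without each replicate. The age difference in CD4 against CD8 T cells had 1 call, 3 with DESeq2, 77 with no filter, 3 from cells with at least 1000 UMIs, 15 without those cells, and 0 to 14 without each replicate. Foxp3 positive cells had 18 calls, 11 with RLE factors, 177 with no filter and 156 without doublets. Pdcd1 positive cells had 10, then 5 with DESeq2, 70 with no filter, 17 without doublets, 6 from cells with at least 1000 UMIs and 5 without those cells. Leaving out a library gave no test for the last 2, since 1 library remained. Of the other values, 171 lost and 21 gained the threshold and 1367 kept their side. Young sums held 145270 and 208079 UMIs against 950613 and 946916 in the aged libraries, so a list with no call by age is not shown to be unchanged.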
